A study of Mus musculus with 6 samples.

Results

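The 5 genes that encode the C/EBP transcription factors (Cebpa, Cebpb, Cebpd, Cebpe and Cebpg) and 4 other factors of the myeloid lineage (Spi1, Irf8, Gfi1 and Runx1) were followed through bulk RNA-seq of MLL-AF9 leukemia in mouse bone marrow. They were taken by symbol from a table of 55487 genes, and all 9 passed the filter of a mean normalized count of 10 over all libraries, as did 15020 genes in total. The donor cells were CD45.2(+) C57BL/6 marrow with Mx1-Cre and Brd9fl/fl that carried the fusion oncogene MLL-AF9, and the recipients were CD45.1(+) CD45.2(-) mice. One group of 3 libraries came from recipients given PBS, and the other group of 3 came from recipients given pIpC at 20 mg/kg in 3 injections. All 6 were labelled as GFP+ bone marrow cells of femora and tibiae collected 10 days after injection. The labels give no ages, and by the methods of the paper recipients of this transplant were 6 weeks old.

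pIpC is a synthetic double-stranded RNA; the interferon it induces switches on Cre from the Mx1 promoter. In the Brd9fl/fl allele Cre removes exons 4 to 6 of Brd9, which encodes a bromodomain subunit of a chromatin remodelling complex. The PBS group carried the same Cre and the same alleles and received no pIpC, so loss of Brd9 and the pIpC treatment itself cannot be told apart. The Mx1 promoter answers interferon in many cell types, so that Cre is not restricted to one lineage of the donor cells. Nothing in the labels says whether the 3 libraries of a group came from separate recipients, and p-values then measure the spread between these samples, which may be technical.

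C/EBP proteins are basic leucine zipper factors that bind DNA as dimers, and PU.1, the ETS factor encoded by Spi1, works beside them on most myeloid promoters and enhancers. C/EBPa takes multipotent cells into the granulocyte and monocyte path, C/EBPe drives the late granulocyte program with its secondary granule genes, and C/EBPb serves demand-driven granulopoiesis and monocyte survival. IRF8 and the zinc finger repressor GFI1 oppose each other at the choice between monocyte and granulocyte fates, and RUNX1 lies upstream of Spi1 and Cebpa. MLL-AF9 leukemia resembles a granulocyte and monocyte progenitor that keeps many of these factors and does not mature.

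As the check of the targeted gene, Brd9 had normalized counts of 1926.8, 1946.4 and 1631.9 in the PBS libraries and 2036.0, 2263.0 and 2011.4 in the libraries labelled pIpC. These values show no fall to go with the label. All libraries labelled pIpC lay above all PBS libraries (2-sided exact permutation p = 0.1). That is the lowest p that 3 against 3 can give, and 30.5% of tested genes were separated in this direction. Brd9 had a log2 fold change of 0.20 and did not pass (limma adjusted p = 0.259), nor did it in any of 17 alternatives. Groups are therefore named below by their labels. The table counts whole genes, so that loss of exons 4 to 6 alone cannot be read from it. The reads on genes, recovered from the table, ranged from 19277439 to 22378154 in PBS and from 22348517 to 23586722 in the libraries labelled pIpC. PBS replicate 3 stood apart: its median absolute log2 difference from the other PBS libraries was 0.602 and 0.621, against 0.136 between those, and 89.0% of tested genes had its value outside the range of PBS replicates 1 and 2. The fold changes of the factors, the shares, the ratios, the list medians and many of the named genes of the lists are therefore also given without it. Marker lists moved with the groups as well. For comparison, 25.0% of all genes tested rose and 20.4% fell at an adjusted p under 0.1 from limma. In the libraries labelled pIpC all 12 mature neutrophil markers were higher (summed normalized count 18747 to 39648 in PBS, 2069573 to 2132188 in pIpC), as were all 12 erythroid markers (1864 to 3089 in PBS, 8447 to 11171 in pIpC, with 2 of the list at 0 in every PBS library) and all 12 B cell markers (1784 to 3002 in PBS, 10767 to 40608 in pIpC, with 1 at 0 in every PBS library). Only 3 of the 12 erythroid and 3 of the 12 B cell markers had a mean of at least 10 in PBS. The others passed the filter through the libraries labelled pIpC alone, so that a higher value was nearly fixed in advance for them. Of 12 monocyte and macrophage markers 8 were higher and 3 lower, with sums of 39275 to 39528 and 38874 to 43271. Of 12 MLL-AF9 self-renewal genes 10 were lower and 2 higher, with sums of 45633 to 61575 and 17384 to 17854. A mean of at least 10 in PBS was held by 11 neutrophil, 11 monocyte and macrophage and 10 self-renewal genes. For the rest of these lists a higher value was likewise nearly fixed in advance. The part of these marker changes in the results below was not tested. In bulk RNA a change in the number of cells of a type and a change in RNA per cell cannot be told apart.

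Of the 9 factors, 5 were higher in the libraries labelled pIpC (Cebpa, Cebpd, Cebpe, Cebpg and Irf8), 1 was lower (Gfi1) and 3 did not pass (Cebpb, Spi1 and Runx1), at a Benjamini-Hochberg adjusted p under 0.1 from limma on log2(normalized count + 1). Over all genes tested 45.3% passed, 25.0% higher and 20.4% lower. Only Cebpe passed 1.5-fold as well, a limit met by 38.4% of tested genes, and 30.9% of tested genes had a larger absolute log2 fold change than Cebpe. The 3 values of one group stayed clear of the 3 of the other for 6 factors, with pIpC above PBS for Cebpa, Cebpe, Cebpg and Irf8 and below it for Gfi1 and Runx1, and 56.8% of tested genes were separated in the same way (30.5% above, 26.3% below). Without PBS replicate 3 all 9 factors passed, 6 higher and 3 lower, where 65.1% of tested genes did (34.5% higher, 30.6% lower).

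**Figure D1:**
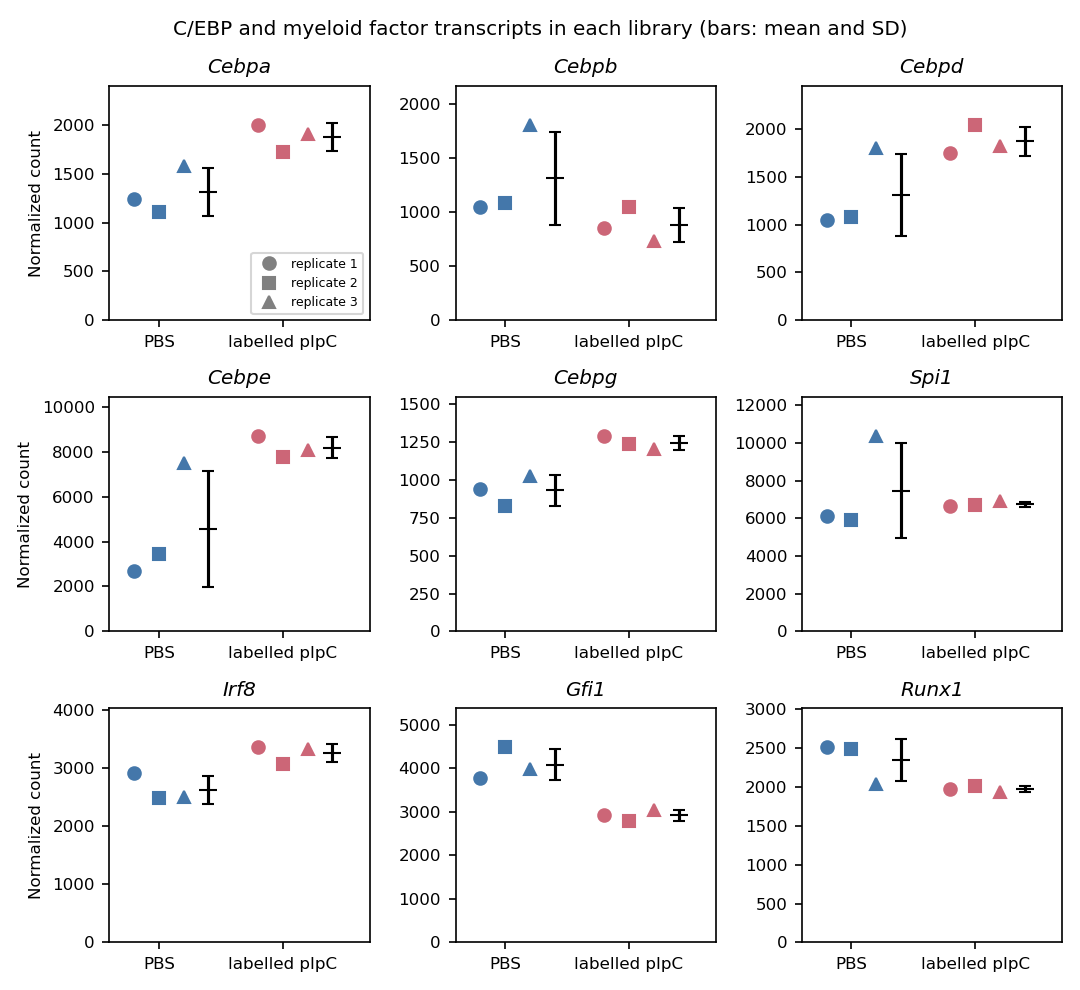
Normalized count of each factor in each library, with PBS in blue and the libraries labelled pIpC in red. Circles, squares and triangles are replicates 1, 2 and 3, which were not treated as paired. Black bars give the mean and SD of 3 libraries. The triangle of PBS replicate 3 lies above the other PBS libraries for Cebpa, Cebpb, Cebpd, Cebpe, Cebpg and Spi1, and below them for Runx1.

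The spread within PBS was the wider one. Across the 9 factors the coefficient of variation ran from 8.86% to 56.8% in PBS and from 1.83% to 18.1% in the libraries labelled pIpC. PBS replicate 3 was above both other PBS libraries for 6 factors and below both for Runx1. Its log2 distance from the mean of the other PBS libraries was 1.30 for Cebpe, 0.79 for Spi1, 0.76 for both Cebpb and Cebpd, 0.43 for Cebpa, 0.23 for Cebpg, -0.05 for Gfi1, -0.11 for Irf8 and -0.29 for Runx1.

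Cebpe (ENSMUSG00000052435, chromosome 14 of GRCm38, 54710360 to 54712174, minus strand), the granulocyte-restricted member, had the largest change of the 9. Its normalized counts were 2677.0, 3463.7 and 7482.6 in PBS and 8695.1, 7782.2 and 8072.5 in the libraries labelled pIpC. All libraries labelled pIpC were higher than all PBS libraries, but PBS replicate 3 came close to the lowest of them. The means were 4541 ± 2578 (SD, n = 3) and 8183 ± 466 (SD, n = 3), and the log2 fold change was 0.99 (standard error, SE, 0.36, limma adjusted p = 0.0723). Without PBS replicate 3 it was 1.42 (SE 0.11, limma adjusted p = 6.75e-06). The call was lost when any other single library was left out, at 0.68 without PBS replicate 1, 0.87 without PBS replicate 2 and 0.95, 1.03 and 1.00 without replicates 1, 2 and 3 of the libraries labelled pIpC.

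Cebpa (ENSMUSG00000034957, chromosome 7, 35119293 to 35121928, plus strand) is a gene of a single exon. It had normalized counts of 1243.3, 1108.3 and 1582.1 in PBS and 1995.1, 1720.5 and 1906.0 in the libraries labelled pIpC, and the groups did not overlap. PBS replicate 3 was again the highest PBS library. Cebpa rose by a log2 fold change of 0.53 (SE 0.16, limma adjusted p = 0.0428), from means of 1311 ± 244 and 1874 ± 140 (SD, n = 3), and 0.67 without PBS replicate 3 (limma adjusted p = 0.000195). Cebpa did not pass without PBS replicate 1 (0.50), PBS replicate 2 (0.42), pIpC replicate 1 (0.48) or pIpC replicate 3 (0.51).

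Cebpg (ENSMUSG00000056216, minus strand, 35046422 to 35056573), which lacks an activation domain and dimerizes with other C/EBP members and with ATF4, lies 62719 bases from Cebpa on the same chromosome 7. Its normalized counts were 937.9, 827.0 and 1029.8 in PBS and 1290.5, 1240.3 and 1203.9 in the libraries labelled pIpC. The groups did not overlap, and the spread within each was narrow. Cebpg rose by a log2 fold change of 0.42 (SE 0.13, limma adjusted p = 0.0412), and by 0.50 without PBS replicate 3 (limma adjusted p = 0.000791). Only without PBS replicate 1 (0.43) or PBS replicate 3 did it still pass among the leave-one-out fits, with 0.34 without PBS replicate 2 and 0.40, 0.43 and 0.45 without replicates 1, 2 and 3 of the libraries labelled pIpC.

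Cebpd (ENSMUSG00000071637, chromosome 16, 15887286 to 15891031, plus strand), an acute-phase member of the family, had normalized counts of 1048.6, 1078.0 and 1801.6 in PBS and 1744.6, 2038.3 and 1818.9 in the libraries labelled pIpC. PBS replicate 3 lay among the libraries labelled pIpC, so the groups overlapped, while the other PBS libraries lay well under them. Its log2 fold change of 0.56 (SE 0.23) sat at the threshold (limma adjusted p = 0.0993). It was 0.81 without PBS replicate 3 (limma adjusted p = 4.35e-05). With any other library left out Cebpd did not pass, at 0.42 and 0.44 without PBS replicates 1 and 2 and at 0.60, 0.49 and 0.57 without replicates 1, 2 and 3 of the libraries labelled pIpC.

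Cebpb (ENSMUSG00000056501, chromosome 2, 167688915 to 167690418, plus strand) was the family member with a negative fold change. Its normalized counts were 1047.8, 1079.0 and 1801.6 in PBS and 855.3, 1049.3 and 734.0 in the libraries labelled pIpC. PBS replicate 3 stood far above the rest, and pIpC replicate 2 lay within the PBS range by a small margin. At -0.54 its log2 fold change (SE 0.25, limma adjusted p = 0.136) did not pass. Without PBS replicate 3 it was -0.29 and passed (SE 0.13, limma adjusted p = 0.0955).

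Reads of the single-exon genes Cebpb and Cebpd came out nearly equal in PBS. Replicate 1 had 1211 recovered reads on Cebpb and 1212 on Cebpd, replicate 2 had 1066 and 1065, and replicate 3 had 1592 on each. In the libraries labelled pIpC they differed, with Cebpb below Cebpd each time. The labels describe libraries without strand information, and both genes share exon bases with a gene on the opposite strand: 312 bases (20.7%) of Cebpb with Tmem189 and 562 bases (15.0%) of Cebpd with Spidr, so that reads there cannot be told apart by strand. Tmem189 itself was at 592.7, 551.6 and 934.8 in PBS and 707.6, 823.5 and 832.6 in the libraries labelled pIpC. Spidr was at 1151.6, 1243.0 and 588.5 in PBS and 919.2, 981.8 and 846.1 in the libraries labelled pIpC, so PBS replicate 3 was the highest library for Tmem189 and the lowest for Spidr.

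To see how the 5 C/EBP transcripts divided their sum in a library, each normalized count was divided by the length of the gene's merged exons in kilobases. Shares formed within a library do not depend on the scaling between libraries. Cebpe held 57.2%, 64.0% and 71.0% of the sum in PBS and 77.6%, 74.8% and 77.3% in the libraries labelled pIpC. Its share was larger in all libraries labelled pIpC, 76.6% ± 1.55 against 64.0% ± 6.91 (SD, n = 3; exact permutation test, 2-sided p = 0.1, adjusted p = 0.25 over 5 shares). Cebpb held 18.5%, 16.4% and 14.1% in PBS and 6.30%, 8.32% and 5.80% in the libraries labelled pIpC. The Cebpb groups did not overlap either, with means of 16.3% ± 2.18 and 6.81% ± 1.33 (SD, n = 3; exact permutation test, 2-sided p = 0.1, adjusted p = 0.25). Leaving out PBS replicate 3 gave differences of 16.0 percentage points for Cebpe and -10.6 for Cebpb. The shares of Cebpa (means 9.74% and 8.25%), Cebpd (6.56% and 5.81%) and Cebpg (3.32% and 2.57%) overlapped between the groups, with differences of -1.48, -0.75 and -0.74 percentage points, and of -2.82, -1.20 and -1.32 without PBS replicate 3. No share could pass, because the smallest p of this design is 0.1.

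**Figure D2:**
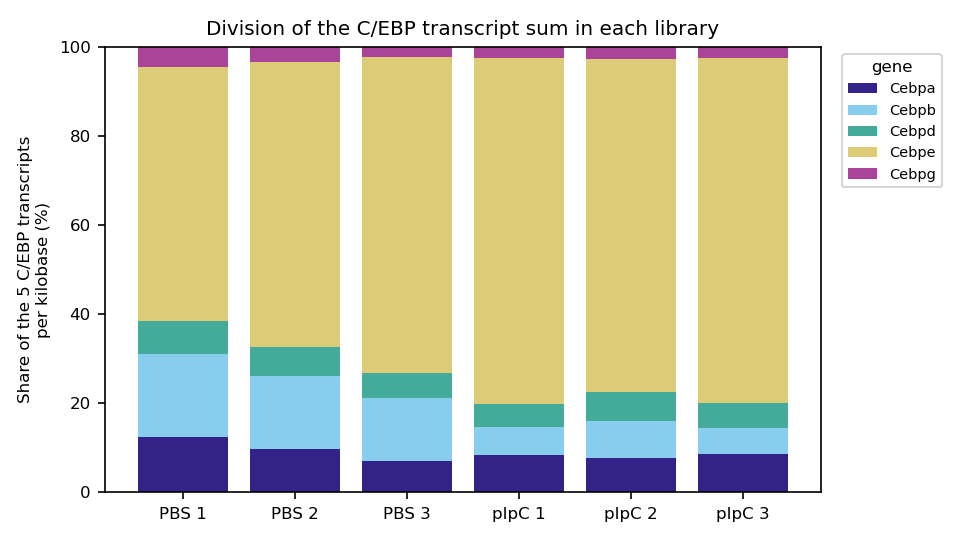
Stacked bars of the share, in percent, that each C/EBP gene held of the 5 transcripts' summed normalized count per kilobase of merged exons, 1 bar for each library. The Cebpe segment is 57.2% to 71.0% in PBS and 74.8% to 77.6% in the libraries labelled pIpC, and the Cebpb segment is 14.1% to 18.5% and 5.80% to 8.32%.

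Spi1 (ENSMUSG00000002111, chromosome 2, 91082390 to 91115756, plus strand), which encodes PU.1, did not pass. It had normalized counts of 6104.9, 5909.2 and 10376.2 in PBS and 6671.0, 6706.3 and 6907.3 in the libraries labelled pIpC. PBS replicate 3 was the highest of all 6 libraries, and the other PBS libraries were the lowest. The log2 fold change was -0.09 (SE 0.23, limma adjusted p = 0.776). Its sign depended on that 1 library: without PBS replicate 3 it was 0.17 (SE 0.06, limma adjusted p = 0.0347). With each of the other libraries left out it stayed between -0.24 and -0.08 and did not pass.

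Runx1 (ENSMUSG00000022952, chromosome 16, 92601466 to 92826149, minus strand) had normalized counts of 2510.0, 2482.9 and 2038.1 in PBS and 1967.2, 2010.7 and 1938.8 in the libraries labelled pIpC. All libraries labelled pIpC were below all PBS libraries, by a small margin at PBS replicate 3. Its log2 fold change was -0.24 (SE 0.13, limma adjusted p = 0.179) and did not pass. Without PBS replicate 3 Runx1 passed, at -0.34 (SE 0.06, limma adjusted p = 0.00132). It did not pass with any other library left out.

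Gfi1 (ENSMUSG00000029275, chromosome 5, 107716657 to 107726036, minus strand), the repressor that holds granulocyte progenitors off the monocyte path, was lower. Its normalized counts were 3789.6, 4489.1 and 3977.8 in PBS and 2918.3, 2793.3 and 3040.2 in the libraries labelled pIpC. The groups were well apart, and PBS replicate 3 lay between the other PBS libraries. Gfi1 had a log2 fold change of -0.48 (SE 0.12, limma adjusted p = 0.0196), from means of 4085 ± 362 and 2917 ± 124 (SD, n = 3), and -0.50 without PBS replicate 3. Gfi1 was the only one of the 9 that passed in every leave-one-out fit, between -0.54 and -0.41. An antisense gene, A430072P03Rik, shares 101 of its exon bases and was at 258.7, 215.6 and 193.5 in PBS and 138.7, 136.9 and 128.6 in the libraries labelled pIpC.

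Irf8 (ENSMUSG00000041515, chromosome 8, 120736358 to 120756694, plus strand), the factor of monocyte and dendritic cell fate, went the other way. It had normalized counts of 2908.8, 2479.9 and 2496.5 in PBS and 3362.5, 3074.3 and 3336.1 in the libraries labelled pIpC. No PBS library reached the lowest of the libraries labelled pIpC, and PBS replicate 3 did not stand apart. Irf8 rose by a log2 fold change of 0.31 (SE 0.12, limma adjusted p = 0.0870), and 0.28 without PBS replicate 3 (limma adjusted p = 0.0189). The call was lost without PBS replicate 2 (0.27) and without replicates 1, 2 or 3 of the libraries labelled pIpC (0.29, 0.35 and 0.29).

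**Figure D3:**
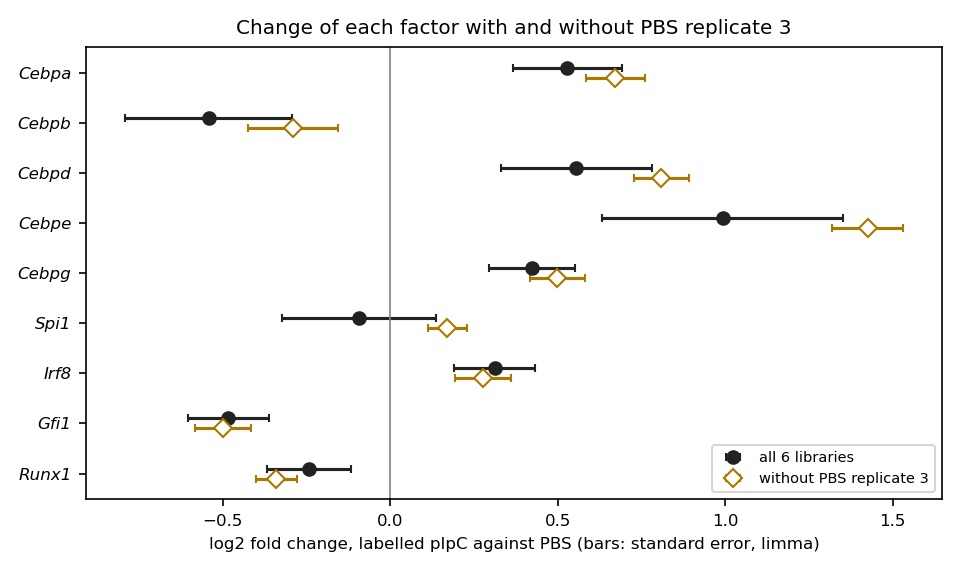
Log2 fold change of each factor, libraries labelled pIpC against PBS, with limma's SE as bars; filled circles use all 6 libraries and open diamonds leave out PBS replicate 3. The bars shorten without that library, Cebpe moves from 0.99 to 1.42, Spi1 moves from -0.09 to 0.17, and Gfi1 stays at -0.48 and -0.50.

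RefSeq promoter sequences (GRCm38.p6, 250 bases before to 50 after a transcript start) had an entry for 6 of the 9 factors, namely Cebpa, Cebpb, Cebpg, Irf8, Gfi1 and Runx1. Irf8, Gfi1 and Runx1 had 2 entries each, of which only the 1 nearest the annotated gene start was used. The sequences were searched on both strands for the core letters bound by the 9 factors' families. These were TTGCNNAA for C/EBP, GAGGAA for PU.1, TGTGGT for RUNX, GAAANNGAA for IRF and AATCNNNGC for GFI1, held by 10.8%, 28.3%, 16.8%, 8.56% and 10.3% of 32851 promoters of the same length. The windows of Cebpa, Cebpb and Cebpg held none of these letters. The 3 stretches below, chosen because they do hold a match, are printed 5′ to 3′ on the strand of the gene, with the match in capitals. The Irf8 stretch (chr8:120736108-120736357, plus strand) has the GFI1 letters on its reverse strand, starting 127 bases before the transcript start. The Gfi1 stretch (chr5:107725806-107726055, minus strand) has the C/EBP letters starting 143 bases before the start. The short Runx1 stretch (chr16:92826029-92826050, minus strand) has the RUNX letters at 2 places on its reverse strand, 28 and 36 bases after the start.
Irf8: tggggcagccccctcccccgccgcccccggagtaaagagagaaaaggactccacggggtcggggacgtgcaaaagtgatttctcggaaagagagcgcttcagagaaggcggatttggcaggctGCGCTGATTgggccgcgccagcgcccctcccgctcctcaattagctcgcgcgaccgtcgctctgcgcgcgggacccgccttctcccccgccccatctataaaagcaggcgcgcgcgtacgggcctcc
Gfi1: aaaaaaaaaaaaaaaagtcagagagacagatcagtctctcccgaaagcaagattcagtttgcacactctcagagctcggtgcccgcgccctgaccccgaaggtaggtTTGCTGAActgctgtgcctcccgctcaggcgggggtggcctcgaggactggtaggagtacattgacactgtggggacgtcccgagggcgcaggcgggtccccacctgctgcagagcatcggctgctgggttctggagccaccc
Runx1: aacaACCACAgaACCACAagtt
A match of letters describes the sequence and is not a site.

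Levels were compared between genes as normalized counts per kilobase of merged exons. In PBS the order from high to low was Cebpe (mean 3659), Spi1 (2769), Gfi1 (1282), Cebpb (871), Cebpa (497), Irf8 (373), Cebpd (350), Runx1 (195) and Cebpg (166). The ranges of neighbours overlapped for Cebpe and Spi1, Gfi1 and Cebpb, Irf8 and Cebpd, and Runx1 and Cebpg. In the libraries labelled pIpC Cebpe (6594) stood clear above Spi1 (2509), followed by Gfi1 (915), Cebpa (711), Cebpb (585), Cebpd (498), Irf8 (462), Cebpg (221) and Runx1 (164). There the neighbours from Cebpa to Irf8 overlapped in turn, and the others did not. Cebpa thus lay under Cebpb in PBS and above it by mean in the libraries labelled pIpC. The order depends on the length used: per kilobase of the longest transcript Spi1 (3669) had the highest mean in PBS, with its range overlapping that of Cebpe, and Irf8 rose to 5th in PBS and 4th in the libraries labelled pIpC.

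The 5 ratios between factors chosen for this comparison were formed within each library, on the log2 scale of values per kilobase. The Cebpb to Cebpa log2 ratio was 0.56, 0.77 and 1.00 in PBS and -0.41, 0.10 and -0.57 in the libraries labelled pIpC. The Irf8 to Gfi1 log2 ratio was -1.53, -2.003 and -1.82 in PBS and -0.94, -1.01 and -1.01 in the libraries labelled pIpC. The Cebpa to Spi1 log2 ratio was -2.26, -2.38 and -2.68 in PBS and -1.71, -1.93 and -1.83 in the libraries labelled pIpC. For these 3 ratios the groups did not overlap, with differences of -1.07, 0.80 and 0.62 (exact permutation test, 2-sided p = 0.1, adjusted p = 0.167 over 5 ratios) and of -0.96, 0.78 and 0.50 without PBS replicate 3. The Cebpe to Cebpa log2 ratio was 2.19, 2.73 and 3.33 in PBS and 3.21, 3.26 and 3.17 in the libraries labelled pIpC. PBS replicate 3 alone made these groups overlap, and the difference was 0.46 (2-sided p = 0.4 from the exact permutation test), 0.75 without PBS replicate 3 and 0.19 without PBS replicate 1. Runx1 to Spi1 (-3.78 and -3.94 on average, p = 1.0 from the same exact permutation test) overlapped too. The Runx1 to Spi1 difference was -0.15, turned to -0.51 without PBS replicate 3, and changed sign without PBS replicate 1 (0.022) or PBS replicate 2 (0.038).

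For each factor the nearest patterns among the 10486 genes whose mean normalized count was 100 or more were found from the root mean square difference of log2 values, after each gene's mean over the 6 libraries was subtracted. This measure rests on 6 libraries that share their scaling and is a description. Spi1 lay nearest to Nsmce4a (0.019) and Dmap1 (0.029), Cebpg to Bcl2l1 (0.026) and Rab32 (0.027), and Runx1 to Dhx32 (0.027) and Smc3 (0.035). Cebpd lay nearest to 1700025G04Rik (0.027) and Spint2 (0.050), Irf8 to Ctsl (0.044) and Pus10 (0.048), and Gfi1 to 2700097O09Rik (0.051) and Eme2 (0.053). Cebpa lay nearest to Pqlc2 (0.060) and Myd88 (0.061), Cebpe to 2810408I11Rik (0.084) and Ethe1 (0.091), and Cebpb, the least closely matched, to Coq7 (0.104) and Polb (0.110). Ethe1, for instance, was at 466.3, 621.5 and 1385.2 in PBS and 1407.3, 1482.5 and 1588.8 in the libraries labelled pIpC, with PBS replicate 3 close to the other group as it was for Cebpe.

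Other genes of the same pathways were taken from lists. Of 12 C/EBP partners and regulators 6 were higher and 4 lower (83.3% of the list, against 45.3% of all genes tested; also 6 and 4 without PBS replicate 3), and their median log2 fold change was 0.44 beside 0.01 over all genes tested. That median was 0.54 without PBS replicate 3, 0.26 without PBS replicate 2 and 0.13 under quantile normalization, and it turned to -0.56 with a mean of at least 50, where fewer genes were tested. Trib1, a pseudokinase that brings C/EBPa to the ubiquitin ligase COP1 for degradation, was at 93.4, 107.3 and 23.8 in PBS and 1114.8, 1092.2 and 753.3 in the libraries labelled pIpC. All libraries labelled pIpC were far above PBS, and the log2 fold change was 3.94 (SE 0.56, limma adjusted p = 0.00184). Its paralog Trib2 had 3 reads or fewer in every PBS library and was at least 22.9-fold higher, against a floor of 3 reads in each PBS library. Of the list 10 of 12 had a mean of at least 10 in PBS. The others, Trib2 among them, passed the filter through the libraries labelled pIpC alone. For them a higher value was nearly fixed in advance, and the counts of the list include them. Cop1 rose by 0.51 on the log2 scale. Atf5, a zipper factor of the stress response, was the lowest of the list at -1.12 (limma adjusted p = 0.00716), and Atf4, a dimer partner of C/EBPg, was at -0.56 (limma adjusted p = 0.00875). Trib1 was at 3.27, Cop1 at 0.61, Atf5 at -0.95 and Atf4 at -0.52 without PBS replicate 3, and all of them passed.

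Among 12 ETS factors and PU.1 partners 5 were higher and 2 lower, 58.3% of the list against 45.3% of all genes tested, with a median of 0.32. Without PBS replicate 3 these were 6 and 3, where 65.1% of all genes passed, with a median of 0.15, and quantile normalization gave a median of 0.17. Ets1 was at 1458.7, 1554.7 and 1000.4 in PBS and 5071.1, 5548.8 and 5559.3 in the libraries labelled pIpC, which gave a log2 fold change of 2.03 (limma adjusted p = 0.000267). Jun, whose protein works with PU.1 on monocyte genes, was at 9853.9, 11623.0 and 6164.2 in PBS and 1309.5, 1208.7 and 1597.5 in the libraries labelled pIpC. It fell by 2.71 on the log2 scale (limma adjusted p = 0.000281), with no overlap. Ets1 was at 1.84 and Jun at -2.97 without PBS replicate 3. Spib, the PU.1 paralog of B cells and plasmacytoid dendritic cells, was at or under 3 reads in each PBS library and at least 45.4-fold higher, beside the rise of B cell markers given above. Of the list 10 of 12 had a mean of at least 10 in PBS. The others, Spib among them, passed the filter through the libraries labelled pIpC alone. For them a higher value was nearly fixed in advance, and the counts of the list include them.

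Of the 7 other IRF genes tested 3 were higher (Irf1, Irf2 and Irf4) and 1 was lower (Irf5), 57.1% of the list against 45.3% of all genes tested, with a median of 0.80. Leaving out PBS replicate 3 gave 5, 1 and 0.85, where 65.1% of all genes passed. The median was 0.47 without pIpC replicate 1 and 0.58 with no filter. Irf2 was the highest of those with a mean of at least 100 by the naming rule, at 1.01 (limma adjusted p = 0.00387), and Irf5 was at -0.43 (limma adjusted p = 0.0819), a call lost without PBS replicate 1 (-0.34) or any 1 of the libraries labelled pIpC (-0.46, -0.44 and -0.40). Irf4, which shares DNA sites with IRF8 and is high in B lineage and dendritic cells, went from 13.0, 13.2 and 18.1 in PBS to 187.6, 176.8 and 151.8 in the libraries labelled pIpC, which gave a log2 fold change of 3.47 (limma adjusted p = 0.000106). Irf2 was at 0.85, Irf4 at 3.62 and Irf5 at -0.39 without PBS replicate 3.

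GFI1 works through corepressors of the histone demethylase and deacetylase kind. Of 7 tested genes of this list, Gfi1b was higher and Hdac2 lower (-0.47, limma adjusted p = 0.0623), and the 5 others did not pass, with a median of 0.11. This was 28.6% of the list, against 45.3% of all genes tested. Without PBS replicate 3 the whole list of 7 passed, where 65.1% of all genes did, 5 higher and 2 lower, with a median of 0.20, and Hdac2 did not pass without pIpC replicate 2 (-0.39) or 3 (-0.46). Kdm1a, the demethylase that GFI1 recruits, was at 1174.1, 980.8 and 1143.0 in PBS and 1315.4, 1227.0 and 1294.8 in the libraries labelled pIpC, which did not pass (0.22, limma adjusted p = 0.203) unless PBS replicate 3 was left out (0.25). Rcor1 had the highest value of those with a mean of at least 100, at 0.56, and did not pass either unless PBS replicate 3 was left out (0.24). Gfi1b, the paralog of the erythroid and megakaryocyte lineages, had 0, 2.0 and 0 in PBS and 178.7, 152.2 and 213.7 in the libraries labelled pIpC, at least 60.3-fold higher, and all 12 erythroid markers rose beside it. Gfi1b and all but 3 of those 12 markers passed the filter through the libraries labelled pIpC alone. A higher value was thus nearly fixed in advance for them, and Gfi1b counts in the 28.6% above.

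RUNX partners and paralogs were split, with 2 of 9 higher and 3 lower (55.6%, against 45.3% of all genes tested) and a median of 0.09, which became 2 higher, 5 lower and a median of -0.34 without PBS replicate 3. Runx3 fell by 0.79 and Runx2 rose by 0.45 on the log2 scale (limma adjusted p = 0.00292 and 0.0741). Cbfb, the shared partner of all RUNX proteins, was at 3874 to 4169 in PBS and 4182 to 4433 in the libraries labelled pIpC and did not pass (0.11, limma adjusted p = 0.436). Cbfa2t3, a corepressor of the ETO family, was at 2803.3, 2584.1 and 2261.1 in PBS and 797.5, 727.4 and 697.2 in the libraries labelled pIpC, which gave a log2 fold change of -1.78 (limma adjusted p = 0.000116). Tle3 was the highest at 1.09. Runx3 was at -0.85, Runx2 at 0.29, Cbfa2t3 at -1.86 and Tle3 at 0.89 without PBS replicate 3, all of which passed.

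Of 18 other myeloid and progenitor factors 7 were higher and 9 lower (88.9%, against 45.3% of all genes tested), with a median of -0.53 (8, 9 and -0.32 without PBS replicate 3). Tal1, the stem cell and erythroid factor, was at 3.5, 3.0 and 3.4 in PBS and 668.7, 667.2 and 671.1 in the libraries labelled pIpC, which gave a log2 fold change of 7.29 (SE 0.21, limma adjusted p = 1.25e-05). Egr1, an immediate early factor of monocyte differentiation, was at 869.5, 716.6 and 390.4 in PBS and 58.9, 54.1 and 48.3 in the libraries labelled pIpC, which gave a log2 fold change of -3.52 (limma adjusted p = 0.000236). Both were separated without overlap. Of the list 17 of 18 had a mean of at least 10 in PBS. Tal1 did not, and it passed the filter through the libraries labelled pIpC alone. A higher value was thus nearly fixed in advance for Tal1, and its p-value adds no support. Myb (-1.24), Gata2 (-1.18) and Lmo2 (-1.69) of early progenitors were lower, and Bcl6 (1.82), Rara (1.78), Klf4 (1.28) and Id2 (3.76) were higher. Tal1 was at 7.30, Egr1 at -3.85 and Klf4 at 0.89 without PBS replicate 3. The median of the list was -0.21 with a mean of at least 50.

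Genes known as targets of the factors followed. Of 12 C/EBPe target genes 11 were higher and none lower (91.7%, against 45.3% of all genes tested), and their median log2 fold change was 4.57 (12, 0 and 4.76 without PBS replicate 3), and 6 of the 12 are also on the list of neutrophil markers. Ltf, which encodes lactoferrin of the secondary granules, was at 1293.5, 2923.2 and 1450.8 in PBS and 307576.4, 333624.5 and 327573.4 in the libraries labelled pIpC. The log2 fold change of Ltf was 7.51 (SE 0.31, limma adjusted p = 1.85e-05), beside 0.99 for Cebpe, and 7.37 beside 1.42 without PBS replicate 3. PBS replicate 3, in which Cebpe stood at 7482.6, did not stand apart in Ltf. Likewise Mmp8 was at 94.3, 146.8 and 52.1 in PBS, so that PBS replicate 3 was its lowest library, and at 12889.0 to 14138.1 in the libraries labelled pIpC. Chil3 was the gene that did not pass, at 0.41 (limma adjusted p = 0.198), although it did without PBS replicate 3 (0.49), and its sign turned under quantile normalization (-0.59).

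Of 18 C/EBPa and PU.1 target genes 10 were higher and 2 lower (66.7%, against 45.3% of all genes tested), with a median of 0.67 (13, 3 and 0.65 without PBS replicate 3). All but 1 of these, 17 of 18, had a mean of at least 10 in PBS. Mpo, myeloperoxidase of the primary granules, was at 5162.7, 5397.0 and 4775.6 in PBS and 143966.3, 129651.0 and 136560.4 in the libraries labelled pIpC, which gave a log2 fold change of 4.74 (SE 0.15, limma adjusted p = 1.37e-05), and 4.69 without PBS replicate 3. Prtn3 and Elane encode primary granule proteases. Prtn3 was at -0.08 and did not pass (limma adjusted p = 0.861), and was at 0.30 without PBS replicate 3 (limma adjusted p = 0.017). Elane was at 51668.7, 59448.0 and 108326.4 in PBS and 51556.8, 48407.5 and 51983.9 in the libraries labelled pIpC, which overlapped and did not pass (-0.45, limma adjusted p = 0.281; -0.13 without PBS replicate 3). The receptors Csf3r (0.94) and Csf2rb (0.86) rose, Csf2ra fell by 0.45 on the log2 scale, and Csf1r did not pass (0.09, limma adjusted p = 0.639). Cd14 was the lowest of the list at -1.16 (limma adjusted p = 0.0176).

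Of 12 IRF8 target genes 8 were higher and 2 lower (83.3%, against 45.3% of all genes tested), with a median of 1.498 (8, 3 and 1.64 without PBS replicate 3), and 2 of the 12 are also monocyte markers. Only 10 of the 12 had a mean of at least 10 in PBS. For the others a higher value was nearly fixed in advance by the filter, and the counts include them. Cybb, the catalytic subunit of the phagocyte oxidase, was at 2772.1, 2847.3 and 1712.2 in PBS and 47000.7, 52454.4 and 49784.9 in the libraries labelled pIpC, which gave a log2 fold change of 4.38 (limma adjusted p = 3.12e-05), and 4.14 without PBS replicate 3. Cst3 was the lowest at -0.97 and did not pass (limma adjusted p = 0.105), and was called without PBS replicate 1, 2 or 3 (-1.23, -1.22 and -0.47). PBS replicate 3 had 19648.0 on Cst3 against 6887.1 and 6985.1 in the other PBS libraries.

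Among 9 genes that GFI1 represses 3 were higher and 5 lower (88.9%, against 45.3% of all genes tested), with a median of -1.45 (3, 5 and -1.17 without PBS replicate 3), while Gfi1 itself fell by 0.48 on the log2 scale. Id2 (3.76) and Csf1 (1.45) were among those that were higher. Hoxa9, at 4917.0, 5172.3 and 5300.7 in PBS and 223.6, 275.9 and 268.8 in the libraries labelled pIpC, was the lowest at -4.32 (SE 0.13, limma adjusted p = 1.27e-05), and Meis1 was at -4.005 (limma adjusted p = 1.68e-05). They were at -4.30 and -4.11 without PBS replicate 3. The median of the list was -0.68 with a mean of at least 50. Hoxa9 and Meis1 are also core genes of MLL-AF9 self-renewal, 10 of 12 of which were lower. Of the 9, 4 (Id1, Id2, Egr1 and Egr2) stand on the list of other factors too.

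**Figure D4:**
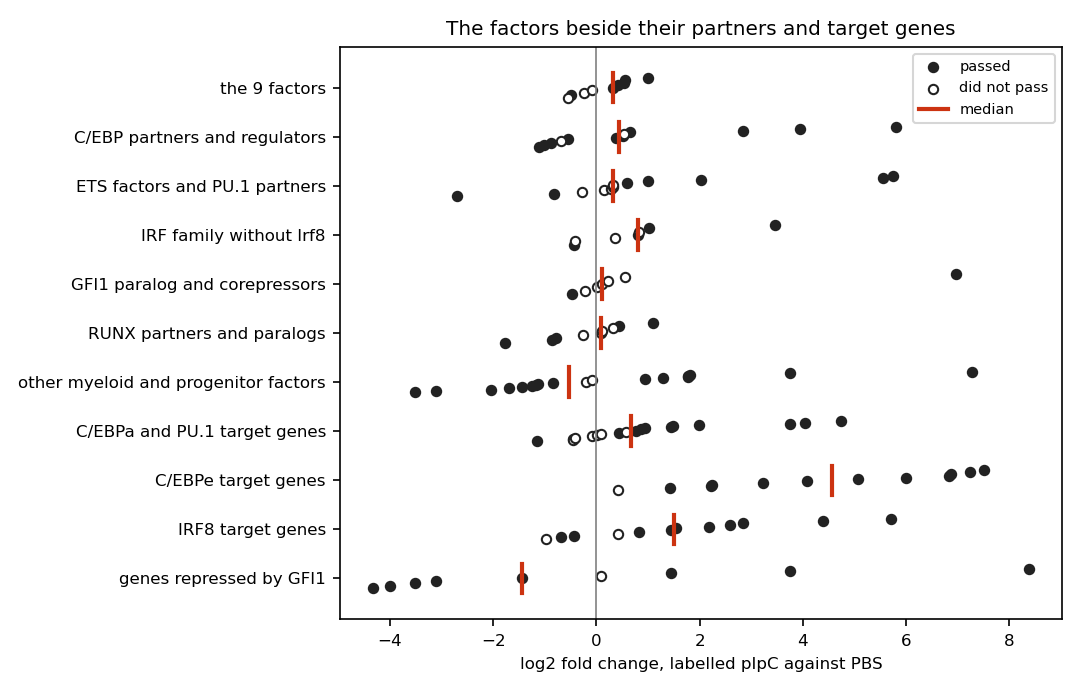
Log2 fold change, libraries labelled pIpC against PBS, of the tested genes of each list; filled points passed an adjusted p under 0.1 from limma, open points did not, and the red line is the list's median. The 9 factors lie between -0.54 and 0.99, whereas the C/EBPe target genes reach 7.51 and the lowest of the genes repressed by GFI1 is at -4.32.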

How the data were processed

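Total RNA of 6 bone marrow samples was sequenced after poly(A) selection. The authors deposited 1 table of gene counts normalized by 1 size factor per library, here taken as a signal; each value above 0 was a whole number of reads times that factor (tolerance 0.01 read), so whole reads were recovered. The submitters' processing notes name HISAT2 (2.2.1), featureCounts, edgeR and GRCm38, whereas the paper's methods name STAR with RSEM and DESeq2; which made the table is not settled. The labels state GFP+ cells and unstranded libraries, whereas the paper's methods for sorted mouse cells describe c-Kit+ cells and stranded libraries. Positions and lengths came from GENCODE M21 (GRCm38).

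limma (3.58.1, R 4.3.3) with an intensity trend tested 15020 genes on log2(normalized count + 1), a scale that understates the change of low genes, with Benjamini-Hochberg adjustment at 0.1. Shares and ratios had exact permutation tests. Alternatives were pseudocounts of 0.1 and 10, no filter, a mean of 50 or more, quantile or median scaling, each library left out, a replicate block, no trend, an adjusted p under 0.05, other lengths for shares, and edgeR (4.0.16) and DESeq2 (1.42.0) on the recovered reads. The fit was tested on simulated data with few changed genes, changes larger than those of the factors and no outlying library. That test therefore does not cover the conditions met here.

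The factors, the 10 gene lists and the 7 marker lists were chosen from general knowledge with earlier results of these data known. Named were the factors, Brd9, the highest and lowest gene of each list among those with a mean of at least 100, and the 2 nearest patterns of each factor; other genes were chosen after their values were seen. Alleles of Brd9 and values per exon were not analysed here. Some genes of the lists are counted but not reported here by name.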

Additional observations from a re-analysis of the deposited data

How the results depend on the processing

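Over 17 alternatives for each of the 9 factors, 106 of 153 comparisons kept direction and call, 41 kept the direction and lost the call, 5 gained a call and 1 reversed. The most calls were lost by Cebpd, Cebpe and Irf8. Quantile normalization moved the median of all genes to -0.12 and the split from 3750 higher and 3058 lower to 3244 and 4078; under it Cebpb (-0.64) and Runx1 (-0.39) gained a call, Cebpd (0.42) and Irf8 (0.18) lost it, and no factor changed sign. DESeq2 called Cebpb (-0.58) and not Cebpd (0.51), and called 6 factors in all. edgeR called 3, without Cebpd (0.50), Cebpe (0.83) and Irf8 (0.29). Cebpd (0.56) was also lost with a pseudocount of 0.1, no filter, a mean of at least 50, no trend and an adjusted p under 0.05, Irf8 (0.31) with no filter, no trend and that threshold, and Cebpe (0.99) with no trend and that threshold. With 1 library left out, the log2 fold change ran from 0.42 to 0.67 for Cebpa, -0.68 to -0.29 for Cebpb, 0.42 to 0.81 for Cebpd, 0.68 to 1.42 for Cebpe, 0.34 to 0.50 for Cebpg, -0.24 to 0.17 for Spi1, 0.27 to 0.39 for Irf8 and -0.34 to -0.19 for Runx1, and the Runx1 to Spi1 difference from -0.51 to 0.038. Reversed without PBS replicate 3 were Spi1 (0.17), Dmap1 (0.16, otherwise down to -0.27) and Nsmce4a (0.17, otherwise down to -0.23). Reversed among lists were the median of C/EBP partners and regulators with a mean of at least 50 (-0.56, fewer genes tested), the median of GFI1 paralog and corepressors under quantile normalization (-0.022) and the median of RUNX partners and paralogs under quantile normalization (-0.030), edgeR (-0.093) and DESeq2 (-0.078) and with 1 library left out (-0.34 to 0.15; -0.088 without pIpC replicate 2). Chil3 reversed under quantile normalization (-0.59). Apart from the settings that test fewer genes, the cause was not tested.

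Same-numbered libraries did not deviate together (correlations -0.12, 0.14 and 0.04 for replicates 1, 2 and 3). Since PBS replicate 3 dominates the spread within PBS, this cannot exclude a pairing, and the main fit took the libraries as unpaired. With the replicate number as a block the number of genes changed was 6095 in place of 6808, and Cebpd (0.56), Cebpg (0.42) and Irf8 (0.31) lost their call. With 3 libraries a group, a share or ratio cannot reach a p below 0.1, and intervals on recovered reads would cover counting error only.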

Other observations

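Markers of dendritic, T and NK cells moved with the groups too, where 25.0% of all genes tested were higher and 20.4% lower. Only 4 of the 10 dendritic cell markers and 1 of the 10 T and NK cell markers had a mean of at least 10 in PBS. The rest of those tested passed the filter through the libraries labelled pIpC alone, so that a higher value was nearly fixed in advance for them. Of 10 dendritic cell markers 9 were higher and none lower, with summed normalized counts of 1325 to 2456 in PBS and 2928 to 4155 in the libraries labelled pIpC, and 2 of the list had 3 reads or fewer in every PBS library. All 7 tested of 10 T and NK cell markers were higher, with sums of 186 to 323 and 3891 to 4538. Irf8, which is also a dendritic cell factor, rose by 0.31 on the log2 scale beside them, and the part of these cells in that value was not tested.

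Within the libraries labelled pIpC, Ighm, the immunoglobulin heavy chain of B cells, was uneven, at 39146.9, 8397.2 and 17362.4, whereas Tal1 was at 668.7, 667.2 and 671.1. Mef2c was 1 of the 2 MLL-AF9 self-renewal genes that were higher, at 4.3, 11.1 and 1.1 in PBS and 1058.9, 1087.1 and 1111.1 in the libraries labelled pIpC. Mef2c had a mean under 10 in PBS, so that a higher value was nearly fixed in advance for it too. Hoxa10 was at 1446.6, 1472.7 and 1693.0 in PBS and 20.0, 12.3 and 21.3 in the libraries labelled pIpC.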
